A study of Mus musculus with 7 samples.

Results

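The TGF-beta ligands, receptors and Smads described here are 10 genes, Tgfb1, Tgfb2, Tgfb3, Tgfbr1, Tgfbr2, Tgfbr3, Smad2, Smad3, Smad7 and Tgfbi, of 35715 gene names on the array. They were taken by name, together with every probe that carries one of these names, which gave 14 of 55681 probes. Total RNA of whole liver was hybridised to arrays with 1 dye, 1 array per animal. The 4 Rbpj+/+ mice (Rbpj +/+_1155, then Rbpj +/+_1156, Rbpj +/+_1024 and last Rbpj +/+_991) were AlfpCre- Rbpj flox/flox, and the 3 Rbpj-/- mice (Rbpj -/-_N3, Rbpj -/-_N5 and Rbpj -/-_2866) were AlfpCre+ Rbpj flox/flox, so that the floxed Rbpj alleles were common to both groups. All were untreated C57BL/6J mice of 4 weeks, and the Rbpj-/- livers were cholestatic by their labels. Alfp is a combination of albumin and alpha-fetoprotein regulatory elements, which drives Cre in the hepatoblasts that give rise to hepatocytes and bile duct cells. Stellate cells, endothelial cells and macrophages of these livers are therefore outside the lineage that Cre recombines. Cholestasis and loss of Rbpj come together in the Rbpj-/- mice and cannot be told apart. Values per liver follow the order in which the mice are named here.

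TGF-beta is secreted in a latent form and is released by integrins, thrombospondins and proteases. The active ligand binds the type II receptor Tgfbr2, which phosphorylates the type I receptor Tgfbr1. Tgfbr1 then phosphorylates Smad2 and Smad3, which enter the nucleus with Smad4, while Smad7 acts as the inhibitor of the receptor. In the liver the pathway is known for the activation of stellate cells, for matrix production and for restraint of hepatocyte growth. RBPJ is the DNA-binding factor through which Notch receptors act on transcription.

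The arrays lay on 1 slide and were read in 1 scan, but the Rbpj+/+ arrays were in slide row 1 and the Rbpj-/- arrays in slide row 2, so row and genotype cannot be told apart. Between 22882 and 36138 probes per array were well above background, and no spot was saturated. The arrays Rbpj +/+_1156 and Rbpj -/-_N3 stood apart, with median intensities of 18.7 and 29.6 against 4.99 to 7.75 on the other 5 arrays, and results are given without them where that matters. Of both Rbpj probes, the one with the higher signal lay at 0.97, 0.29, 0.33 and 0.81 in Rbpj+/+ and at -0.35, -0.78 and -0.48 in Rbpj-/- liver (log2 fold change -1.13, SE 0.24, adjusted p = 0.0115 by limma), and the other fell by 1.63 with overlapping values (SE 0.58, adjusted p = 0.0723). Hepatocyte markers were bright in all 7 livers, with a mean level over 8 genes of 7.78 to 8.67. Levels are log2 intensities minus the 75th percentile of the array, so that 0 is the signal that the brightest 25% of the probes of an array exceed.

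The probe sequences of Tgfb1, Tgfb2 and of the dimmer Tgfbr2 probe are shown because each of them lies at the end of the coding sequence, where the ligands resemble each other. Capitals in the ligand probes mark the bases that are identical between them in the best ungapped alignment, and capitals in the Tgfbr2 probe mark the stop codon with which it ends. The positions are those of the array design (mm9), chr7:26489877-26489936 on the plus strand for Tgfb1, chr1:188449333-188449392 on the minus strand for Tgfb2 and chr9:115999496-115999555 on the minus strand for Tgfbr2.
Tgfb1: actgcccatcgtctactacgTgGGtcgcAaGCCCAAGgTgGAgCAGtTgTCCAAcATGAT
Tgfb2: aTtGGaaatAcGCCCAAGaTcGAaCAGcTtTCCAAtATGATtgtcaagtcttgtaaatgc
Tgfbr2: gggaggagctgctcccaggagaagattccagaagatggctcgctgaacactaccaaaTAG
The ligand probes shared 28 of 41 aligned bases, and the remaining bases of each probe had no counterpart in the other.

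The genes Tgfb1, Tgfb2, Tgfbr2, Smad2 and Tgfbi were higher in Rbpj-/- liver, while Tgfb3, Tgfbr1, Tgfbr3, Smad3 and Smad7 did not pass the test. Tested were the probes with signal well above background throughout at least 1 genotype, and a probe was called at an adjusted p below 0.1. Of 14 probes 12 were tested, which covers all 10 genes, and 6 probes were called, all of them higher and none lower. Over the whole array 33.6% of 24547 tested probes were called and 14.3% were called higher. Read by the tested probe with the highest mean signal, 5 of 10 genes were called higher, against 14.6% of 18754 genes (34.2% in either direction), and the median log2 fold change was 0.62 for the 10 genes and -0.13 for all genes. Values of the genotypes did not overlap for 5 of the 12 probes, all higher in Rbpj-/- liver, against 15.0% of all tested probes (35.6% in either direction). The 3 genes Tgfb1, Tgfbr2 and Tgfbi were called at an adjusted p below 0.05. Without Rbpj +/+_1156 and Rbpj -/-_N3, 3 of the 12 probes and 3 of the 10 genes were called, all higher. In that fit 28.3% of 25098 tested probes were called in either direction, 2856 higher and 4236 lower. With 35 ways to split the 7 arrays, the exact permutation test (two-sided) cannot give a p below 0.0571, which all 5 probes with non-overlapping values reached.

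**Figure D1:**
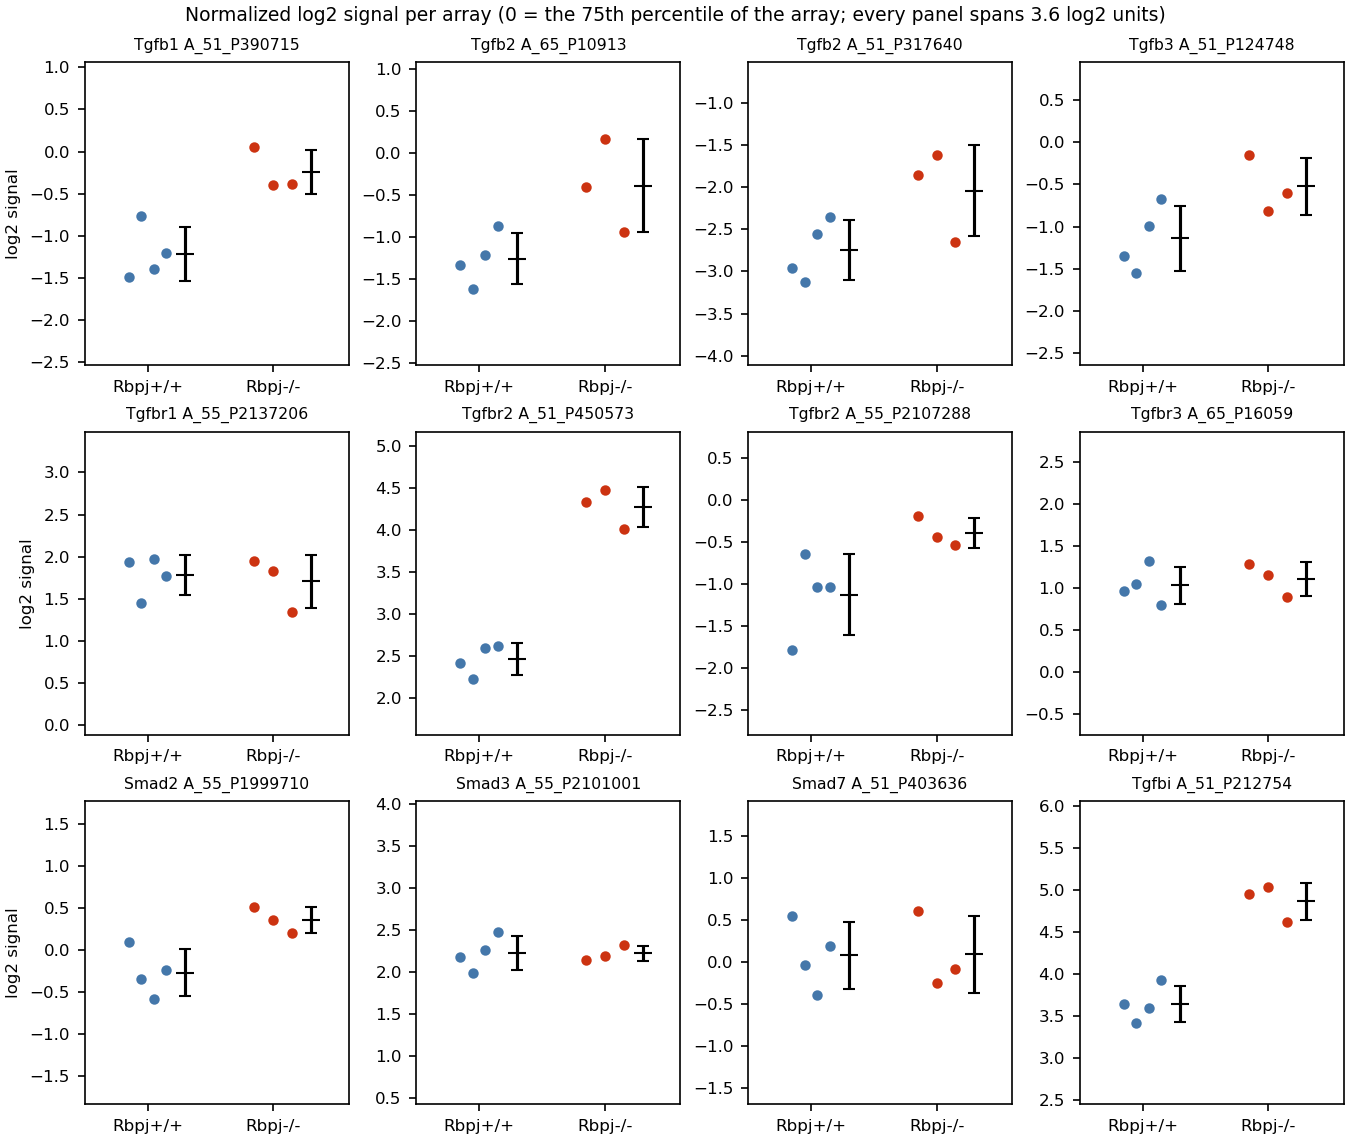
Normalized log2 signal of the 12 tested probes in each of the 4 Rbpj+/+ (blue) and 3 Rbpj-/- (red) livers, with mean and SD as bars and the same span of the y axis in every panel. The groups lie apart for Tgfb1, both Tgfbr2 probes, Smad2 and Tgfbi, and overlap for the other 7 probes. The first panel of Tgfb2 and of Tgfbr2 is the probe with the higher signal.

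Among the ligands, Tgfb1, the main isoform of inflamed and scarring tissue, was measured by 10 spots of 1 probe. Its level was -1.50, -0.77, -1.39 and -1.21 in Rbpj+/+ liver and 0.06, -0.39 and -0.39 in Rbpj-/- liver. Every Rbpj-/- liver lay above every Rbpj+/+ liver. Tgfb1 was higher by 0.97 on the log2 scale (SE 0.24, adjusted p = 0.0202 by limma), which is 1.97-fold with a 95% interval of 1.36 to 2.85. The spots of the probe had an SD of 0.08 to 0.36 within an array, the largest on Rbpj +/+_1156, whose level was also the highest of its group. The difference was 0.97 (adjusted p = 0.0263) without Rbpj +/+_1156 and Rbpj -/-_N3, and 0.39 (adjusted p = 0.0640) with normexp background correction.

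Tgfb2, another isoform of the ligand, was read by probes whose starts lie 1799 bp apart. The probe printed above lay at -1.33, -1.62, -1.22 and -0.88 in Rbpj+/+ and at -0.40, 0.17 and -0.94 in Rbpj-/- liver. Rbpj -/-_2866 fell within the Rbpj+/+ range, and Rbpj -/-_N3 and Rbpj -/-_N5 lay above it. The log2 fold change was 0.87 (SE 0.29, adjusted p = 0.0606), which is 1.83-fold with a 95% interval of 1.16 to 2.88. This call was lost without Rbpj +/+_1155, Rbpj +/+_1156, Rbpj +/+_1024, Rbpj -/-_N3 or Rbpj -/-_N5 (adjusted p = 0.107, 0.103, 0.120, 0.134 and 0.213), without Rbpj +/+_1156 and Rbpj -/-_N3 together (0.181), with normexp correction (0.235, log2 fold change 0.27) and with quantile normalization (0.133). It was lost as well with the values of the deposited series matrix (0.135) and without a filter on dim probes (0.274).
The other Tgfb2 probe, at chr1:188447534-188447593 (mm9), lay at -2.96, -3.13, -2.55 and -2.35 in Rbpj+/+ and at -1.85, -1.62 and -2.65 in Rbpj-/- liver. Again Rbpj -/-_N3 and Rbpj -/-_N5 stood above all Rbpj+/+ livers and Rbpj -/-_2866 did not. Its difference was 0.71 (SE 0.30, adjusted p = 0.118) and turned to -0.07 with normexp correction, and the difference between the probes changed by 0.16 between genotypes (exact permutation p = 0.229).

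Tgfb3, the ligand best known from palate and lung development, was measured by 10 spots of 1 probe at chr12:87397804-87397863 (mm9). It lay at -1.35, -1.55, -0.99 and -0.68 in Rbpj+/+ and at -0.15, -0.81 and -0.60 in Rbpj-/- liver. The ranges overlapped through Rbpj +/+_991 and Rbpj -/-_N5. The difference of 0.62 (SE 0.27, adjusted p = 0.122) did not pass the threshold, its 95% interval ran from 0.02 to 1.22, and it was 0.30 without Rbpj +/+_1156 and Rbpj -/-_N3.

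Among the receptors, Tgfbr2, the type II receptor that binds the ligand first, had the largest difference of the 12 tested probes. The probe with the higher signal, at chr9:115997155-115997214 (mm9), lay at 2.41, 2.22, 2.60 and 2.62 in Rbpj+/+ and at 4.32, 4.47 and 4.01 in Rbpj-/- liver. The lowest Rbpj-/- liver was 1.40 above the highest Rbpj+/+ liver. Tgfbr2 was higher by 1.81 (SE 0.20, adjusted p = 0.00106), which is 3.50-fold with a 95% interval of 2.55 to 4.79. This difference lay above that of 96.6% of all tested genes.

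The Tgfbr2 probe printed above starts 2341 bp upstream on the transcript, at the stop codon. It lay at -1.78, -0.64, -1.04 and -1.03 in Rbpj+/+ and at -0.19, -0.44 and -0.53 in Rbpj-/- liver. The groups were apart by a gap of 0.11 between Rbpj +/+_1156 and Rbpj -/-_2866. The difference was 0.73 (SE 0.27, adjusted p = 0.0838), and the call was lost in 11 of 18 alternatives, among them the fits without Rbpj +/+_1155, Rbpj +/+_1024, Rbpj +/+_991, Rbpj -/-_N3, Rbpj -/-_N5 or Rbpj -/-_2866 (adjusted p = 0.131 to 0.218) and without Rbpj +/+_1156 and Rbpj -/-_N3 together (0.102).
Within each array the signal of the first probe exceeded that of the second by 4.20, 2.86, 3.64 and 3.64 in Rbpj+/+ and by 4.52, 4.91 and 4.54 in Rbpj-/- liver. These differences were apart as well, so that the signals of the probes changed unequally, by 1.07 on the log2 scale (exact two-sided permutation p = 0.0571, the smallest possible). The second probe was the dimmer one on every array and had the smaller change, and the part of its low signal in this was not tested.

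Tgfbr1, the type I receptor that carries the kinase signal to Smad2 and Smad3, lay at 1.93, 1.45, 1.97 and 1.77 in Rbpj+/+ and at 1.95, 1.82 and 1.34 in Rbpj-/- liver by the probe at chr4:47427736-47427795 (mm9). Tgfbr3, the co-receptor betaglycan that presents the ligand, lay at 0.97, 1.05, 1.32 and 0.80 and at 1.29, 1.16 and 0.89 by the probe at chr5:107535818-107535877 (mm9). For both genes the Rbpj-/- values were within or beside the Rbpj+/+ range. The differences were -0.08 (SE 0.23, adjusted p = 0.831, 95% interval -0.59 to 0.44) for Tgfbr1 and 0.08 (SE 0.20, adjusted p = 0.795, 95% interval -0.38 to 0.54) for Tgfbr3. Neither interval reaches the difference of the Tgfbr2 probe with the higher signal. The other Tgfbr1 probe was well above background on 1 array of each genotype and was not tested.

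Smad2, the receptor-activated Smad that carries the TGF-beta and activin signal, lay at 0.09, -0.35, -0.58 and -0.23 in Rbpj+/+ and at 0.52, 0.36 and 0.20 in Rbpj-/- liver. The groups were apart by 0.11, the gap between Rbpj +/+_1155 and Rbpj -/-_2866. Smad2 was higher by 0.63 (SE 0.21, adjusted p = 0.0622), which is 1.54-fold with a 95% interval of 1.11 to 2.16. The call was lost without Rbpj +/+_1024, Rbpj +/+_991, Rbpj -/-_N3 or Rbpj -/-_N5 (adjusted p = 0.154, 0.117, 0.175 and 0.159) and without Rbpj +/+_1156 and Rbpj -/-_N3 together (0.180). It was lost as well without a filter on dim probes (0.287).

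Smad3, the second Smad activated by Tgfbr1 and the one that itself binds DNA, lay at 2.17, 1.98, 2.27 and 2.47 in Rbpj+/+ and at 2.14, 2.19 and 2.32 in Rbpj-/- liver by the probe at chr9:63494574-63494633 (mm9). All Rbpj-/- values fell within the Rbpj+/+ range. The difference was -0.004 (SE 0.19, adjusted p = 0.990, 95% interval -0.43 to 0.42). The other Smad3 probe was well above background on 1 array of each genotype and was not tested.

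Smad7, which blocks Tgfbr1 and is itself a known early target of TGF-beta, lay at 0.55, -0.04, -0.39 and 0.19 in Rbpj+/+ and at 0.61, -0.25 and -0.09 in Rbpj-/- liver. The spread within each genotype was larger than the difference between them, 0.01 (SE 0.29, adjusted p = 0.980). Its 95% interval, -0.65 to 0.67, is the widest among the receptors and Smads, so that a difference as large as that of Smad2 lies within it.

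Tgfbi, a secreted matrix protein named for its induction by TGF-beta, lay at 3.64, 3.42, 3.59 and 3.93 in Rbpj+/+ and at 4.95, 5.04 and 4.62 in Rbpj-/- liver by the probe at chr13:56740460-56740519 (mm9). The lowest Rbpj-/- liver was above the highest Rbpj+/+ liver by 0.69. Tgfbi was higher by 1.22 (SE 0.20, adjusted p = 0.00495), which is 2.33-fold with a 95% interval of 1.69 to 3.21. It was called in all 18 alternatives run, as was the brighter Tgfbr2 probe.

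**Figure D2:**
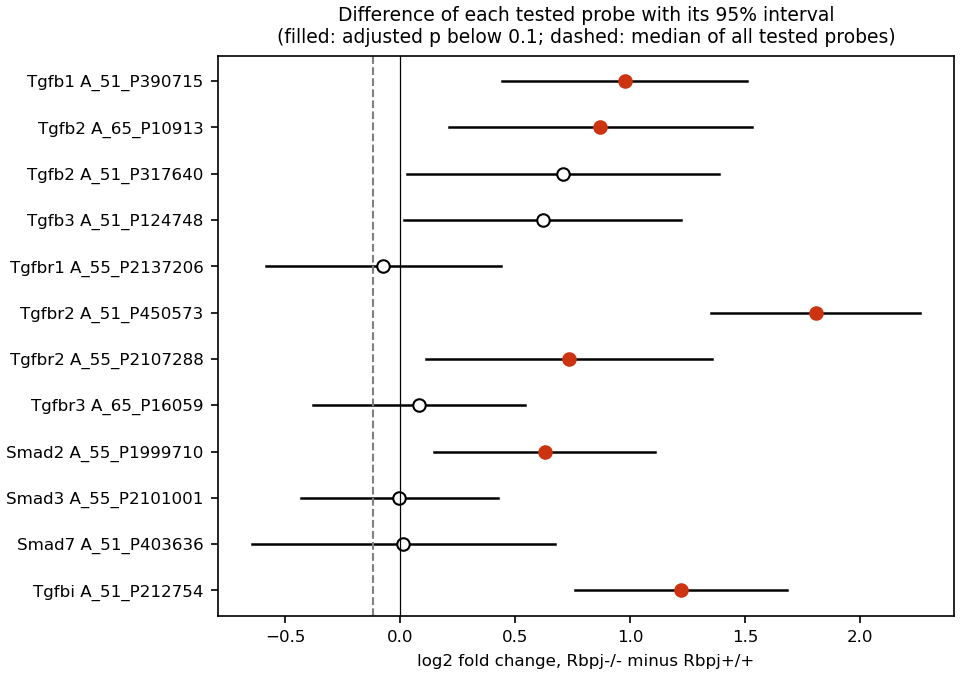
Log2 fold change (Rbpj-/- minus Rbpj+/+) of the 12 tested probes with 95% intervals, filled where the adjusted p was below 0.1, and the median of all tested probes as a dashed line at -0.12. The brighter Tgfbr2 probe and the Tgfbi probe lie farthest to the right, and Tgfbr1, Tgfbr3, Smad3 and Smad7 lie near 0.

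Promoters were read from RefSeq windows (GRCm38.p6) of 6 of the 10 genes and 7 start sites, cut to the 250 bases before the start. The chromosome that carries Smad2 and Smad7 was left out of this reading, and no window was read for Tgfb3 or Tgfbr3. Shown are the windows of the called genes Tgfb1, Tgfb2, Tgfbr2 and Tgfbi and of Smad3, which was not called. They were read for an RBPJ motif because Rbpj was deleted in these livers. Those of Tgfbr1, also not called, held no RBPJ motif and are not shown. The part of the motifs in the differences between genotypes was not tested. Capitals mark the matches, on either strand, to the RBPJ core TGGGAA, the SMAD element CAGACA, the TEAD element GGAATG, the GC box GGGCGG, the AP-1 element TGANTCA and the TATA box TATAAA. The windows lie at chr7:25686752-25687001 (plus strand, Tgfb1), chr1:186705990-186706239 (minus strand, Tgfb2), chr9:116175364-116175613 (minus strand, Tgfbr2), chr13:56609336-56609585 (plus strand, Tgfbi) and chr9:63757995-63758244 (minus strand, Smad3).
Tgfb1: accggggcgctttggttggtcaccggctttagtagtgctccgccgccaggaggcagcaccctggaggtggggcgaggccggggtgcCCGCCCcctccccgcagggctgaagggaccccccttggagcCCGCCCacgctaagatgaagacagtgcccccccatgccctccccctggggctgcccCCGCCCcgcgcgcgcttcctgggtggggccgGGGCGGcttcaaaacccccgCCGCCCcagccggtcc
Tgfb2: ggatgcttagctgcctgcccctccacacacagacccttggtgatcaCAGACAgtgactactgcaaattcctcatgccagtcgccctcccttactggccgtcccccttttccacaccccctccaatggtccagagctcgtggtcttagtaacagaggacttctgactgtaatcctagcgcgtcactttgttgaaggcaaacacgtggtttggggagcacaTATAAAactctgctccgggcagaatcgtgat
Tgfbr2: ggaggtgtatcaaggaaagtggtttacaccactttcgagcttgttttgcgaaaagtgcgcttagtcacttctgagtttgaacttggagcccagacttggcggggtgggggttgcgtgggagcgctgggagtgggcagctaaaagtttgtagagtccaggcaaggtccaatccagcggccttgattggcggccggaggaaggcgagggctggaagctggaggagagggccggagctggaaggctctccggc
Tgfbi: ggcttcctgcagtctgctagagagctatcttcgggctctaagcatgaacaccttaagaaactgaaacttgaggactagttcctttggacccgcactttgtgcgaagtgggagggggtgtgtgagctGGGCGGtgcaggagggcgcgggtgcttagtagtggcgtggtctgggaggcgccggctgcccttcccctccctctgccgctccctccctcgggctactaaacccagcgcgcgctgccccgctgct
Smad3: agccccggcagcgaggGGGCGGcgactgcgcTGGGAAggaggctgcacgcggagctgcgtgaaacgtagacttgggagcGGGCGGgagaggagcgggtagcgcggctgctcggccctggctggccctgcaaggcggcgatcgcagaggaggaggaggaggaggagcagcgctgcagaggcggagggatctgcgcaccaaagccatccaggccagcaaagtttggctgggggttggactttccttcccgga
The RBPJ core was found in 1 of the 7 windows, that of Smad3, 219 to 214 bases before the start, and in 21.6% of 32851 windows of all genes. The SMAD element was found in 2 windows, Tgfb2 and a Tgfbr1 start, against 17.1% of all windows. The GC box was found in 4 windows (32.7% of all), with 5 matches in that of Tgfb1 and 2 in that of Smad3, and the TATA box in 1 window, that of Tgfb2, 31 to 26 bases before the start (12.4% of all). The windows with a GC box were 62.4% to 75.2% G and C, against a median of 52.4% over all windows. The TEAD element (12.6% of all) and the AP-1 element (6.75% of all) had no match in the 7 windows, and the Tgfbr2 window held none of the 6 motifs. No match to one motif overlapped a match to another in these windows.

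The 3 genes most like a given member over the 7 arrays were those with the smallest root mean square difference between log2 values, each gene centred on its own mean, among 18727 genes with a value on all arrays. For Tgfb1 they were Micall2 (0.09), Rab19 (0.10) and Enkd1 (0.11), where the median over genes was 0.72. For Tgfbr2 they were Anxa3 (0.12), Ctss (0.13) and Hexim1 (0.14), with a median over genes of 1.02. Ctss encodes cathepsin S, a protease of antigen-presenting cells, and Anxa3 an annexin. For Tgfbi they were Marcks (0.08), Map3k1 (0.08) and C030046G05 (0.09), with a median over genes of 0.76. Among the members themselves Tgfbr2 and Tgfbi differed by 0.30 and Tgfb2 and Tgfbi by 0.27, while the smallest difference was that of Tgfbr1 and Tgfbr3 (0.21).

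Beyond the 10 genes, 87 of 99 other genes of the pathway in 5 lists were tested, and 31 were higher and 7 lower in Rbpj-/- liver. That is 43.7% called, against 34.2% of all genes, with 35.6% higher against 14.6% and 8.05% lower against 19.5%. The median log2 fold change was 0.36, against -0.13 for all genes. Some of the 87 genes passed the filter only through the Rbpj-/- arrays, among them Fbn1, Thbs1, Thbs2 and Timp1. Where detection on all 7 arrays was required, 25 were higher and 9 lower of 78. In that fit 2849 probes were higher and 4838 lower of 21249 tested.

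Of the genes that store and release latent TGF-beta, 18 of 21 were tested, and 10 were higher and 2 lower (66.7% called, median 0.72). Where detection on all 7 arrays was required, 7 were higher and 3 lower of 15. Fbn1, the fibrillin that anchors the latent complex in the matrix, was at -1.58, -3.13, -2.15 and -1.66 in Rbpj+/+ and at 0.41, -0.23 and -0.58 in Rbpj-/- liver, which is 3.99-fold higher (SE 0.40 on the log2 scale, adjusted p = 0.00994). Fbn1 was well above background on 3 Rbpj+/+ arrays, as was Thbs1, a thrombospondin that activates the latent ligand. Thbs1 was higher by 1.78 (SE 0.39, adjusted p = 0.0142), and its values did not overlap. Thbs2, its relative without that activity, was well above background on no Rbpj+/+ array but was at least 1.67-fold higher in Rbpj-/- liver (adjusted p = 0.00669). For this bound each Rbpj+/+ array was given its own signal or, where higher, its lowest signal that was well above background. Of the 18 tested genes the 2 lower ones are Ltbp4, a latent TGF-beta binding protein (log2 fold change -0.98, adjusted p = 0.0219), and Plg, the plasminogen made by hepatocytes (-0.80, adjusted p = 0.0243). Both were named after their values were seen because they stand against the list.

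The list of other receptors and receptor regulators had 2 genes higher and 1 lower of 11 tested (27.3% called, median -0.16). With detection required on all 7 arrays, 1 gene was higher and 2 were lower of 10. Acvr1b, the type I activin receptor that also signals to Smad2 and Smad3, was well above background on 1 Rbpj+/+ array and on all Rbpj-/- arrays. It was called higher (fitted difference 1.95, SE 0.49, adjusted p = 0.0227), but only a difference of at least 0.69 was measured, with the Rbpj+/+ arrays limited as for Thbs2. Eng, the endothelial co-receptor endoglin, was at 0.88, 1.34, 1.32 and 1.16 in Rbpj+/+ and at 1.95, 1.57 and 1.63 in Rbpj-/- liver, higher by 0.54 (SE 0.20, adjusted p = 0.0824). Acvr2b, a type II activin receptor, fell by 0.66 (SE 0.21, adjusted p = 0.0522). Without Rbpj +/+_1156 and Rbpj -/-_N3 no gene of this list was called higher and 4 were called lower.

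Of the other Smads and the regulators of Smads all 21 were tested, and 2 were higher and 1 lower (14.3% called, median 0.03). Smad9, a Smad of the BMP branch, lay at 0.02, -0.37, -0.44 and -0.28 in Rbpj+/+ and at -2.65, -1.77 and -2.65 in Rbpj-/- liver, and fell by 2.08 (SE 0.26, adjusted p = 0.00171). Smad1, another Smad of the BMP branch, was higher by 0.62 (SE 0.23, adjusted p = 0.0813), although its other probe gave 0.26. Zeb2, a Smad-binding repressor, was higher by 0.99 (SE 0.23, adjusted p = 0.0180). Smad4, the partner of Smad2 and Smad3, was not called and differed by 0.09 (adjusted p = 0.785), and its other probe gave 0.30.

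Among activins, related ligands and extracellular binders, 3 genes were higher and 2 lower of 16 tested (31.2% called, median 0.31). Inhbe, an activin subunit made by hepatocytes, lay at 5.13, 4.30, 3.66 and 3.79 in Rbpj+/+ and at 0.81, -0.43 and 1.01 in Rbpj-/- liver, and fell by 3.76 (SE 0.44, adjusted p = 0.00129). Inhbb, another activin subunit, was higher by 1.57 (SE 0.34, adjusted p = 0.0138). Lum, the matrix proteoglycan lumican, lay at 2.42, 1.61, 2.54 and 2.41 in Rbpj+/+ and at 4.61, 4.19 and 3.83 in Rbpj-/- liver, higher by 1.97 (SE 0.29, adjusted p = 0.00293).

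Of genes known to respond to TGF-beta, 14 were higher and 1 lower of 21 tested (71.4% called, median 1.26). Where detection on all 7 arrays was required, 11 were higher and 1 lower of 18. Timp1, an inhibitor of matrix proteases, lay at -2.04, -3.27, -4.73 and -0.92 in Rbpj+/+ and at 3.33, 2.26 and 0.62 in Rbpj-/- liver. The groups were apart, although the values spread widely within both, and Timp1 was well above background on 2 of the 4 Rbpj+/+ arrays. The fitted difference was 4.81 (SE 0.89, adjusted p = 0.00765), or at least 4.38 with the same limit. Ctgf, a matrix-associated signalling protein that is also a known YAP target, was higher by 2.26 (SE 0.57, adjusted p = 0.0230). The collagen genes Col1a1, Col1a2, Col3a1 and Col5a1 were higher by 1.44, 1.37, 0.95 and 1.26, and Acta2, the smooth muscle actin of activated stellate cells, by 1.70 (adjusted p = 0.00603). The gene that was lower is Nox4, an oxidase known as a TGF-beta target in stellate cells (log2 fold change -1.41, adjusted p = 0.0428). The collagens, Acta2 and Nox4 were named after their values were seen. Without Rbpj +/+_1156 and Rbpj -/-_N3 this list had 10 genes higher and none lower of 21.

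**Figure D3:**
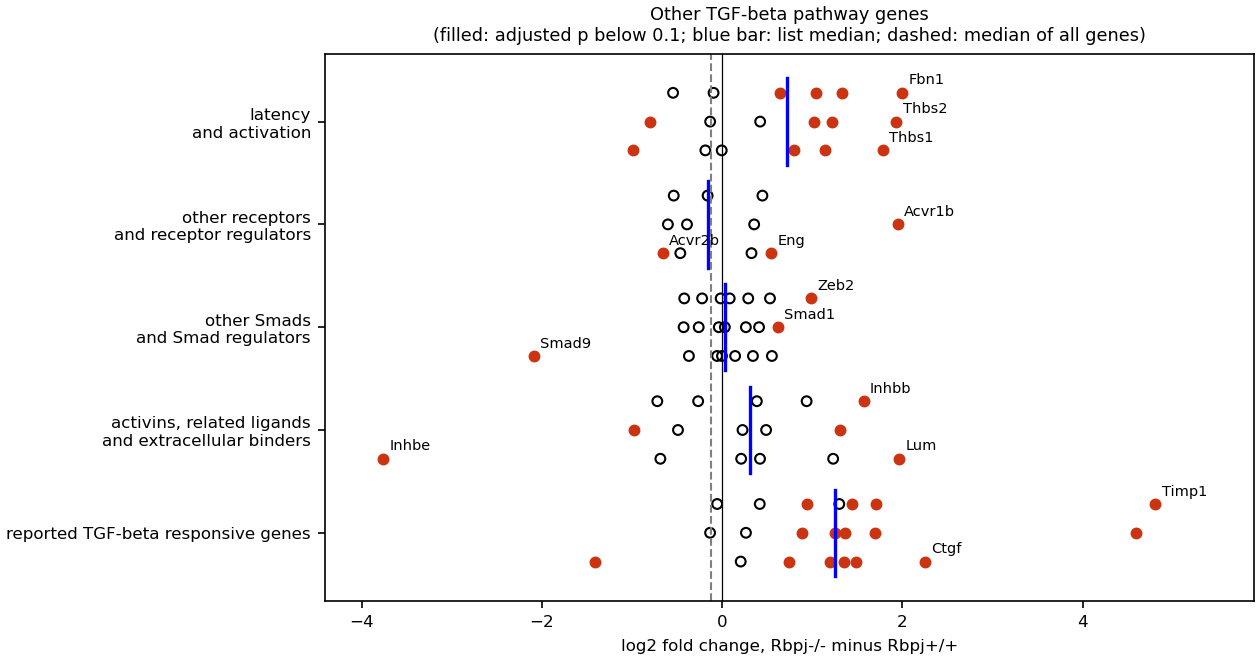
Log2 fold change of the 87 tested genes of the 5 lists, 1 point per gene, filled where the adjusted p was below 0.1, with the list median as a blue bar and the median of all genes (-0.13) as a dashed line. Latent TGF-beta genes and responsive genes lie mostly to the right of 0, while the receptors and Smads spread around it and Inhbe and Smad9 lie far to the left.

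In RNA of whole liver, more cells of a type and more RNA per cell cannot be told apart, and several cell types that make or bind TGF-beta are not hepatocytes. Marker genes of several cell types differed with the genotype, and their counts stand against 14.6% of all genes called higher and 19.5% called lower. Of the macrophage and Kupffer cell markers 8 of 10 tested were higher and none lower, and their mean level was 1.31 to 1.91 in Rbpj+/+ and 3.45 to 3.68 in Rbpj-/- liver, Trem2 with the largest difference (3.50, adjusted p = 0.00465). Markers of stellate cells and portal fibroblasts were higher in 5 of 10 and lower in none, with mean levels of -0.32 to 0.14 and of 0.23 to 0.62, and Thy1, a portal fibroblast marker, rose by 1.17 (adjusted p = 0.0251). Endothelial markers were higher in 4 of 9 and lower in 1, with mean levels of 1.32 to 1.89 and of 1.97 to 2.32, and Tek, well above background on 2 Rbpj+/+ arrays, was higher by at least 0.997 (fitted 1.50, adjusted p = 0.0804). The lower one is Kdr (-1.19, adjusted p = 0.00689), with values apart, although its other probe gave 0.01. Kdr was named after its values were seen because it stands against the list.

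Of the neutrophil markers 3 of 6 were higher and 2 lower, with mean levels of 0.15 to 1.88 and of 2.21 to 2.96, and Retnlg, well above background on 3 Rbpj+/+ arrays, was higher by at least 3.30 (fitted 3.47, adjusted p = 0.00169). The 2 lower ones, Csf3r and Elane, differed by -0.76 and -0.50 (adjusted p = 0.0564 and 0.0979), with values apart. Both were named after their values were seen because they stand against the list. Platelet markers were called in 1 of 3 (33.3%, near the 34.2% of all genes), Pf4, which was higher by 1.28 (adjusted p = 0.0189), and their mean levels overlapped (-1.39 to 0.03 and -0.53 to 0.18). Markers of T, NK and B cells were lower in 5 of 7 and higher in none, with mean levels of 0.05 to 0.67 and of -1.51 to -0.53, and Ms4a1, well above background on 1 Rbpj-/- array, had a difference of -1.93 or beyond (fitted -3.34, adjusted p = 0.0143). All 6 proliferation genes were higher, with mean levels of -0.93 to 0.52 and of 2.03 to 2.33, and Top2a, well above background on 1 Rbpj+/+ array, was higher by at least 3.25 (fitted 3.61, adjusted p = 0.00241).

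Hepatocyte markers were lower in 5 of 8 and higher in none, with overlapping mean levels of 7.99 to 8.67 and of 7.78 to 8.10, and Cyp2e1 had the largest difference (-1.20, adjusted p = 0.0115). Cholangiocyte markers were higher in 2 of 6 and lower in none (33.3% called, again near that of all genes), also with overlapping mean levels (-1.48 to -0.76 and -1.34 to -0.21), and Spp1, which macrophages express too, was higher by 1.66 (adjusted p = 0.0145). Thus the macrophage, stellate cell, endothelial, neutrophil and proliferation levels lay apart between genotypes in the same direction as Tgfb1, Tgfbr2, Smad2 and Tgfbi. These levels are means over genes, and 2 neutrophil markers and 1 endothelial marker were lower in Rbpj-/- liver. The level of the T, NK and B cell markers lay apart in the opposite direction. The part of these levels in the results was not tested.

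**Figure D4:**
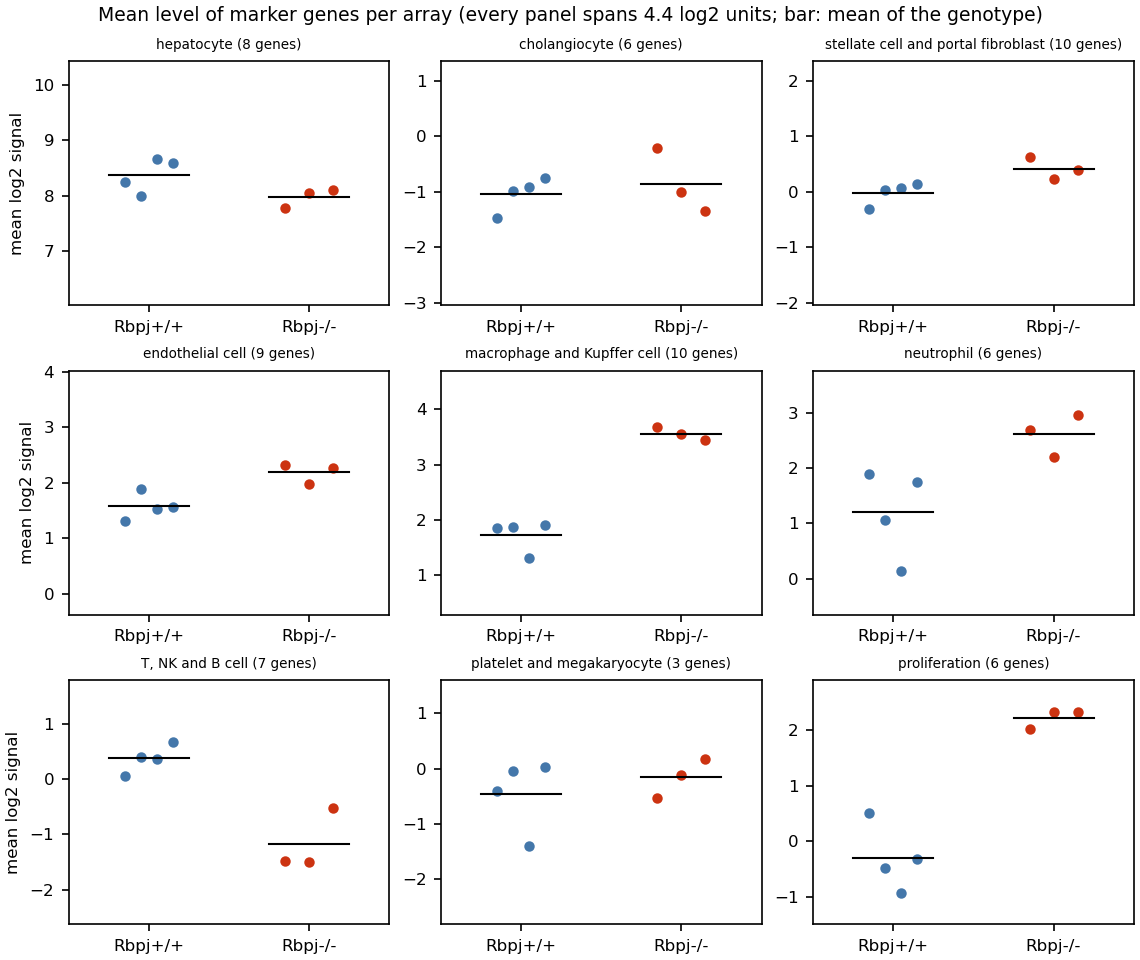
Mean normalized log2 signal of the marker genes of each cell type in each liver, Rbpj+/+ in blue and Rbpj-/- in red, with the group mean as a bar. Macrophage, stellate cell, endothelial, neutrophil and proliferation levels lie higher and lymphocyte levels lower in Rbpj-/- liver without overlap. The neutrophil and endothelial means also include markers that were lower.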

How the data were processed

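Total RNA of whole liver was labelled with Cy3 and hybridised to 1 array per animal. As deposited, the intensity of each spot is the processed signal of Agilent Feature Extraction 10.7.3.1, background-subtracted by the authors and not normalized between arrays, and mean and background intensities stand beside it. The log2 values of the deposited series matrix come from the same arrays. Per the methods they were shifted by the 75th percentile and then to a median baseline, and their medians per array lie between -0.0039 and 0. Each sample is labelled with 1 animal number, and p-values measure the spread between these animals.

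Control probes were removed, as were spots flagged by the scanner software for non-uniformity or as population outliers (146 probe values). Log2 signals of repeated spots were averaged by probe, and each array's 75th percentile over probes was subtracted. Genotypes were compared over all tested probes with limma 3.58.1 in R 4.3.3 (lmFit and eBayes), with Benjamini-Hochberg adjustment and a threshold of 0.1. The methods name a shrinkage t statistic, in place of which limma was used. Adjusted p-values and 95% intervals are those of this fit. For single values the exact permutation test, two-sided, was used. The number of arrays limits the precision. In a simulation of 24547 probes, 132 of 200 changes of 1.5 on the log2 scale were recovered with 23 false calls. Only these 200 probes were changed there, while 33.6% of probes were called in the data. The simulated recovery therefore does not give the recovery in the data.

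The 10 genes, the pathway lists (latency and activation, other receptors, other Smads, activins and binders, responsive genes), the marker lists, the tests and the alternatives were chosen with earlier results of these data known. Named are all 10 genes with every probe, Rbpj, the 3 genes of each pathway list with the largest change among those called with values apart, the 3 genes most like Tgfb1, Tgfbr2 and Tgfbi, and the marker of each list with the largest fitted change. Smad4 and the genes marked as named after their values were seen stand outside these rules. A single gene of the responsive list is not reported here by itself. Current symbols came from the accession (28325 probes), the symbol (2214) or a synonym (174), and 24968 probes kept the array's name. Emr1 and Ly6g of the marker lists were matched to no probe of their own. Positions of probes are those of the array design (mm9), and exons were not read from an annotation. Promoter sequences are from RefSeq (GRCm38.p6). Alternatives were quantile normalization, normexp correction (offset 50), other percentiles, other filters, compromised spots kept, limma-trend, array weights, the series matrix, a threshold of 0.05, the mean over the probes of a gene, and each array left out. The percentile over spots and the fit without Rbpj +/+_1156 and Rbpj -/-_N3 were added after the data were seen, as were the limits for genes dim on some arrays.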

Additional observations from a re-analysis of the deposited data

Results flagged for a closer look

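In 55 sets of 4 Rbpj+/+ values the highest or lowest was compared with the others, and about 1 set in 20 is marked by chance. Rbpj +/+_1156 had a Lum level of 1.61, where the next Rbpj+/+ had 2.41. Rbpj +/+_991 had an Ms4a1 level of -0.54, where the next had -1.49. The mean level of the other Smads and Smad regulators was 0.59 in Rbpj +/+_1156, against 0.88 in the next, and that of the macrophage and Kupffer cell markers was 1.31 in Rbpj +/+_1024, against 1.86 in the next. No probe of the 10 genes was marked.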

How the results depend on the processing

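The direction of Tgfb1, Tgfb2 (printed probe), Tgfb3, both Tgfbr2 probes, Smad2 and Tgfbi was the same in all alternatives run, and no called value changed its sign. The log2 fold change ran from 1.70 to 1.97 for the brighter Tgfbr2 probe, from 1.11 to 1.46 for Tgfbi, from 0.39 to 1.12 for Tgfb1 and from 0.44 to 0.75 for Smad2. Tgfb1 was not called without a filter on dim probes (adjusted p = 0.150). Of values not called, Tgfb3 was called with the percentile over probes detected on all arrays, with detection on all 7 arrays and without Rbpj +/+_991 (adjusted p = 0.0909, 0.0972 and 0.0854), and the second Tgfb2 probe with the same percentile and without Rbpj -/-_2866 (0.0883 and 0.0482). Of the 12 probes 6 and of the 10 genes 5 were called as reported. These counts were 3 and 3 at a threshold of 0.05, 2 and 2 without a filter on dim probes, and 3 and 3 without Rbpj +/+_1156 and Rbpj -/-_N3 together. With 1 array left out, the probes called ranged from 3 to 6 and the genes from 3 to 5, and both were 3 without Rbpj +/+_1024, Rbpj -/-_N3 or Rbpj -/-_N5. The 38 pathway genes called became 12 without a filter on dim probes, which tests 55681 probes in place of 24547, and 30 to 45 with 1 array left out. Of all tested probes, 33.6% were called as reported, 3.66% without a filter on dim probes and 18.7% to 36.7% with 1 array left out. This share was at most 22.4% without Rbpj +/+_1024, Rbpj -/-_N3 or Rbpj -/-_N5. In these fits and without the filter, calls were therefore fewer over the whole array, not only among these genes. The second Tgfbr2 probe lost its call with 11 alternatives. Over all probes, 42.7% of the calls were higher in Rbpj-/- liver, 51.4% with the percentile over detected probes, 51.6% in the series matrix and 58.4% without a filter on dim probes. Tgfb1, both Tgfb2 probes, Tgfb3 and the second Tgfbr2 probe, the dimmest tested probes of the 10 genes, fell most with normexp correction. Its offset of 50 is large beside the 75th percentiles of the arrays (57.5 to 143) and shrinks the differences of dim probes. These falls therefore cannot show whether background limits the values. No paired analysis was possible because the labels give animal numbers that the genotypes do not share.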
